A study of Mus musculus with 4 samples.

Results

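Ribosome biogenesis genes are described here in regulatory T (Treg) cells that lack the deubiquitinase CYLD. The set is a list of 40 genes for nucleolar proteins, RNA polymerase I and ribosome assembly factors. A gene was followed through the probe set that is annotated with its symbol alone and, where there were several such probe sets, through the one with the highest mean over all arrays. Such a probe set was listed for 38 of the 40 genes, out of 19938 genes in all, and Npm3 and Noc2l were not analysed here. All 38 passed the filter on low values and are among the 13956 genes tested.

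The study compared 2 arrays of CYLD-knockout Treg cells with 2 arrays of wild-type Treg cells, on Affymetrix mouse gene arrays. The knockout mice were Cyld fl/fl Foxp3-yfp-cre and the wild-type mice Cyld+/+ Foxp3-yfp-cre, all C57Bl6 and aged 6 to 8 weeks. In these mice a Cre recombinase is expressed from the Foxp3 gene together with yellow fluorescent protein, so the knockout is directed at Foxp3-expressing cells. The wild-type mice carry the Cre as well. Whether deletion was restricted to Foxp3-expressing cells was not tested. Cells positive for the fluorescent protein were sorted from spleen and lymph nodes according to the tissue label, or from spleen alone according to the treatment label. The labels do not say whether the replicates are separate mice, so p-values measure only the spread between these samples, which may be technical.

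The nucleolus is where RNA polymerase I transcribes ribosomal RNA and where small nucleolar ribonucleoproteins (snoRNPs) and assembly factors modify, cut and fold it into ribosomal subunits. T cells raise this machinery when they are activated and grow. The transcription factor Myc is a known activator of many of its genes, and the machinery is usually most active in dividing cells. The question was whether these genes move with Myc or with the proliferation genes in CYLD-knockout Treg cells.

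Array medians lay between 99.0 and 105 on the intensity scale, and arrays correlated across tested genes at 0.974 within the knockout, 0.985 within wild type and 0.948 to 0.960 between genotypes. Cyld itself read 284 and 218 on the knockout arrays, against 524 and 502 on the wild-type arrays (log2 fold change -1.04 ± 0.17, SE; limma adjusted p = 8.89e-08). Treg markers were bright on every array, with Foxp3 at 1697 and 1553 in the knockout and at 2016 and 1881 in wild type. In the marker lists of other cell types, 9 of 10 macrophage and monocyte genes fell (limma adjusted p under 0.05), against 3.5% of all tested genes. The summed intensity of these markers was 954 and 1193 on the knockout arrays against 2317 and 2141 on the wild-type arrays. Of the CD8 T and NK cell markers Eomes rose, and of the plasma cell markers Prdm1 rose, which Treg cells can also express. No tested B cell, dendritic cell or granulocyte marker passed the test, but only 3 of 6, 4 of 6 and 2 of 7 were tested. Of the erythroid markers 0 of 6 were tested. At limma's unadjusted p under 0.05, 1 B cell marker was lower, while 2 had log2 fold changes above 0. No marker on the arrays can read 0, since the lowest deposited value is 26.6. Knockout replicate 2 stood apart from knockout replicate 1 in Y-linked Kdm5d, looked up after its values were seen, at 127 against 268, where wild type read 271 and 275. The sex-linked genes Eif2s3y and Xist were looked up as well and are not reported here.

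Ribosome biogenesis genes that changed were all lower in CYLD-knockout Treg cells. With limma and an adjusted p under 0.05, 4 of the 38 tested members fell and 0 rose, which is 10.5% of them, where 3.5% of all tested genes were called lower and 4.79% higher. The 4 were Utp20, Heatr1, Polr1b and Dkc1. The median log2 fold change of the 38 was -0.32, with a range from -0.60 to 0.14, and that of all tested genes was -0.02. At an unadjusted p under 0.05 there were 17 members lower and 0 higher, against a background of 10.2% of tested genes lower. The log2 fold change was below 0 in 34 members, where 53.3% of tested genes were below 0. Both knockout arrays read below both wild-type arrays in 24 members, against 26.2% of tested genes, and above them in 1 member, against 22.5%. In RNA of whole sorted samples, fewer cells of a type and less RNA per cell cannot be told apart. The macrophage markers fell on the same arrays, and their part in these results was not tested.

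These calls rest on small changes and on a standard error of 0.17 that limma pooled over all genes and that is the same for every gene. The smallest change called in the whole comparison was 1.40-fold, and the 4 members lay close to it. No member was called when either wild-type array was left out. The median log2 fold change of the members was then -0.24 with replicate 1 left out and -0.36 with replicate 2 left out. That of all tested genes was -0.036 and -0.0004 in the same fits. The members past the threshold differed between leaving out knockout replicate 1 and leaving out knockout replicate 2. Utp20 was the one called in both, with log2 fold changes of -0.62 and -0.58. With each array centred on its median, 1 of 38 members passed, again Utp20, where 2.92% of tested genes were called lower. A limma fit with no pooling of variances called 0 genes over the whole table. At its unadjusted p under 0.05 there were 1813 genes in either direction. By that measure 9 of 38 members were lower, against 6.96% of tested genes lower. An exact permutation test on 2 against 2 arrays cannot give a two-sided p below 0.333.

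**Figure D1:**
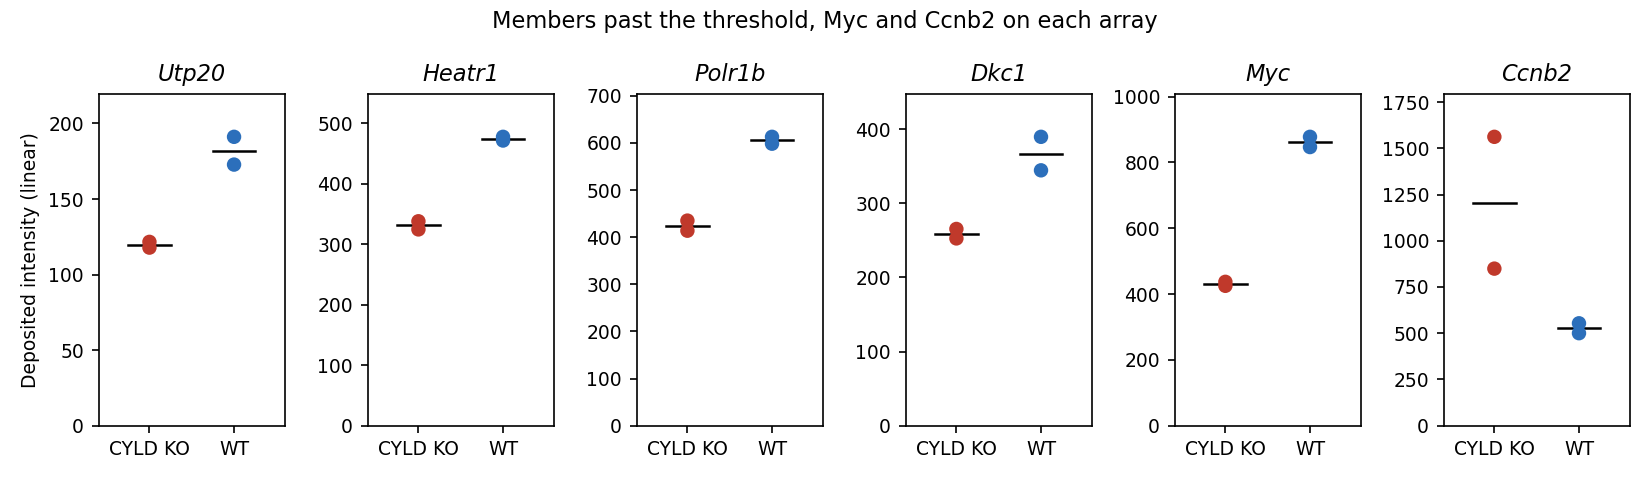
Deposited intensity (linear scale, axis from 0) of 6 genes on each array, with CYLD knockout at the left and wild type at the right of each panel; points are arrays and bars are means of 2 arrays. The knockout arrays lie below the wild-type arrays for Utp20, Heatr1, Polr1b, Dkc1 and Myc, and above them for Ccnb2.

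Among the factors of the small subunit processome, the particle that forms on the nascent precursor RNA, the giant repeat protein gene Utp20 fell most. Utp20 read 122 and 118 in the knockout and 191 and 173 in wild type. The knockout arrays thus lay at 65.8% of the wild-type mean with no overlap (log2 fold change -0.60, 95% interval -0.93 to -0.27; limma adjusted p = 0.00830). Heatr1, the homologue of yeast Utp10 and a factor that also promotes ribosomal RNA transcription, read 338 and 324 in the knockout and 477 and 471 in wild type, and fell by 0.52 on the log2 scale (adjusted p = 0.0313). Replicates of Heatr1 agreed closely within each genotype.

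The other 8 small subunit factors did not pass the test. Bysl, needed for late small subunit maturation, read 123 and 129 in the knockout and 183 and 165 in wild type, with no overlap (log2 fold change -0.46, adjusted p = 0.0753). Rrp12, a repeat protein of subunit maturation and export, read 129 and 98.5 in the knockout against 160 and 134 in wild type, and Nop14 read 138 and 126 in the knockout against 193 and 143 in wild type. In each of these the lower wild-type array lay only just above the higher knockout array. Utp14a, a processome component, read 98.4 and 90.8 in the knockout and 137 and 94.8 in wild type, so its groups overlapped. Rrp9, a protein of the U3 snoRNP, read 100.4 and 98.1 in the knockout and 127 and 102 in wild type, which did not overlap but lay near the array medians. Noc4l, the partner of Nop14 in yeast, read 197 and 192 in the knockout and 195 and 220 in wild type. Utp15, a processome subunit, read 157 and 199 in the knockout and 220.1 and 169.8 in wild type, and Utp18, another, read 319 and 246 in the knockout against 271 and 279.9 in wild type. Both overlapped between genotypes, with log2 fold changes of -0.13 and 0.02.

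Of the listed RNA polymerase I genes, 6 of 6 had both knockout arrays below both wild-type arrays, where 26.2% of tested genes did. Their median log2 fold change was -0.36. Further subunits of this polymerase are counted in the wider list of other ribosome biogenesis genes below. Polr1b, the second-largest subunit, read 414 and 435 in the knockout and 613 and 598 in wild type, and fell by 0.51 on the log2 scale (limma adjusted p = 0.0339). Polr1a, the largest subunit, read 288 and 297 in the knockout and 416 and 386 in wild type and did not pass (log2 fold change -0.45, adjusted p = 0.0776). The catalytic pair therefore had close fold changes on opposite sides of the threshold. Polr1c, which RNA polymerase III shares, read 246 and 200 in the knockout and 268 and 299 in wild type. Polr1e, which encodes a peripheral subunit, read 125 and 111 in the knockout and 168 and 136 in wild type. Rrn3, the initiation factor that makes the polymerase competent to start, read 277 and 301 in the knockout against 429 and 325 in wild type. These 3 had log2 fold changes between -0.37 and -0.35 and did not pass. Ubtf, the factor that organises the ribosomal gene promoter, read 905 and 863 in the knockout and 919 and 961 in wild type, a log2 fold change of -0.09 with a 95% interval from -0.42 to 0.24.

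Of the proteins of snoRNPs, particles that chemically modify ribosomal RNA, Dkc1 passed the test. Dkc1, the pseudouridine synthase of the box H/ACA class, read 252 and 265 in the knockout and 389 and 344 in wild type, and fell by 0.50 on the log2 scale (limma adjusted p = 0.0414). Its partner Nop10 read 571 and 670 in the knockout and 765 and 807 in wild type, with no overlap, but did not pass (adjusted p = 0.228). Gar1 and Nhp2, the other 2 proteins of that particle, overlapped between genotypes. Gar1 read 386 and 323 in the knockout and 339 and 440 in wild type, and Nhp2 read 426 and 660 in the knockout and 584 and 630 in wild type.

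The box C/D class, whose particles methylate ribose, had 3 of 3 members below 0, against 53.3% of all tested genes, and none past the threshold. Nop58 read 147 and 127 in the knockout and 202 and 180 in wild type, and its log2 fold change of -0.48 had an adjusted p of 0.0567. Nop56 read 665 and 737 in the knockout and 945 and 903 in wild type (log2 fold change -0.40). Neither scaffold protein overlapped between genotypes. Fbl, the methyltransferase fibrillarin, read 419 and 631 in the knockout and 668 and 616 in wild type, so that on this probe set only knockout replicate 1 was low. Without knockout replicate 2 it had a log2 fold change of -0.61 (adjusted p = 0.0166, with a range from 0.0166 to 0.942 over all alternatives). A further probe set of Fbl read 345 and 325 in the knockout and 414 and 403 in wild type, so that there both knockout arrays were low and did not overlap with wild type. The probe sets had close log2 differences, -0.29 for this one and -0.32 for the one used, but disagree on knockout replicate 2.

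The abundant nucleolar proteins were 4 of 4 below 0, where 53.3% of all tested genes were, and none passed. Nolc1, a chaperone of snoRNPs, came nearest, reading 306 and 322 in the knockout and 481 and 396 in wild type (log2 fold change -0.48, adjusted p = 0.0574). Ddx21, an RNA helicase of ribosomal RNA transcription and processing, read 482 and 500.1 in the knockout and 628 and 596 in wild type. Npm1, nucleophosmin, read 649 and 569 in the knockout and 753 and 712 in wild type. These 3 did not overlap between genotypes. Ncl, nucleolin, read 780 and 628 in the knockout and 842 and 761 in wild type and overlapped (log2 fold change -0.19).

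Large subunit factors had the median log2 fold change nearest 0 among the roles, -0.18, with 0 of 11 past the threshold and 3 above 0. That rank rests on knockout replicate 2, where their median difference from the wild-type mean was 0.01. On knockout replicate 1 it was -0.28, further from 0 than for the small subunit factors (-0.24) and the abundant nucleolar proteins (-0.26). Gnl3, the nucleolar GTPase nucleostemin, read 183 and 161 in the knockout and 234 and 213 in wild type (log2 fold change -0.38). Noc3l read 138 and 160 in the knockout against 221 and 165 in wild type, and Ftsj3, a ribosomal RNA methyltransferase, 106 and 104 in the knockout against 143 and 128 in wild type. Nop2, a methyltransferase of the large subunit RNA, read 264 and 301 in the knockout and 361 and 337 in wild type. These 4 did not overlap between genotypes, and none passed. The members of the PeBoW complex, which processes the large subunit precursor, were near 0, with log2 fold changes of -0.11 for Bop1, -0.13 for Pes1 and -0.18 for Wdr12, of which a further probe set had a log2 difference of -0.27. Bop1 read 372 and 447 in the knockout and 491 and 396 in wild type, Wdr12 read 187 and 243 in the knockout against 247 and 237 in wild type, and Pes1 read 190.3 and 190.6 in the knockout against 225 and 192 in wild type. Nop16, a factor of the same pathway, read 338 and 495 in the knockout and 488 and 453 in wild type, with knockout replicate 2 above both wild-type arrays. Rrs1, Ebna1bp2 and Rrp1, also assembly factors of the large subunit, had log2 fold changes of 0.14, 0.09 and 0.04. Rrs1 was the single member with both knockout arrays above wild type, at 102 and 110.2 in the knockout against 96.08 and 96.11 in wild type. Ebna1bp2 read 219 and 202 in the knockout and 189 and 208 in wild type, and Rrp1 read 297 and 289 in the knockout against 294 and 275 in wild type, so both overlapped.

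**Figure D2:**
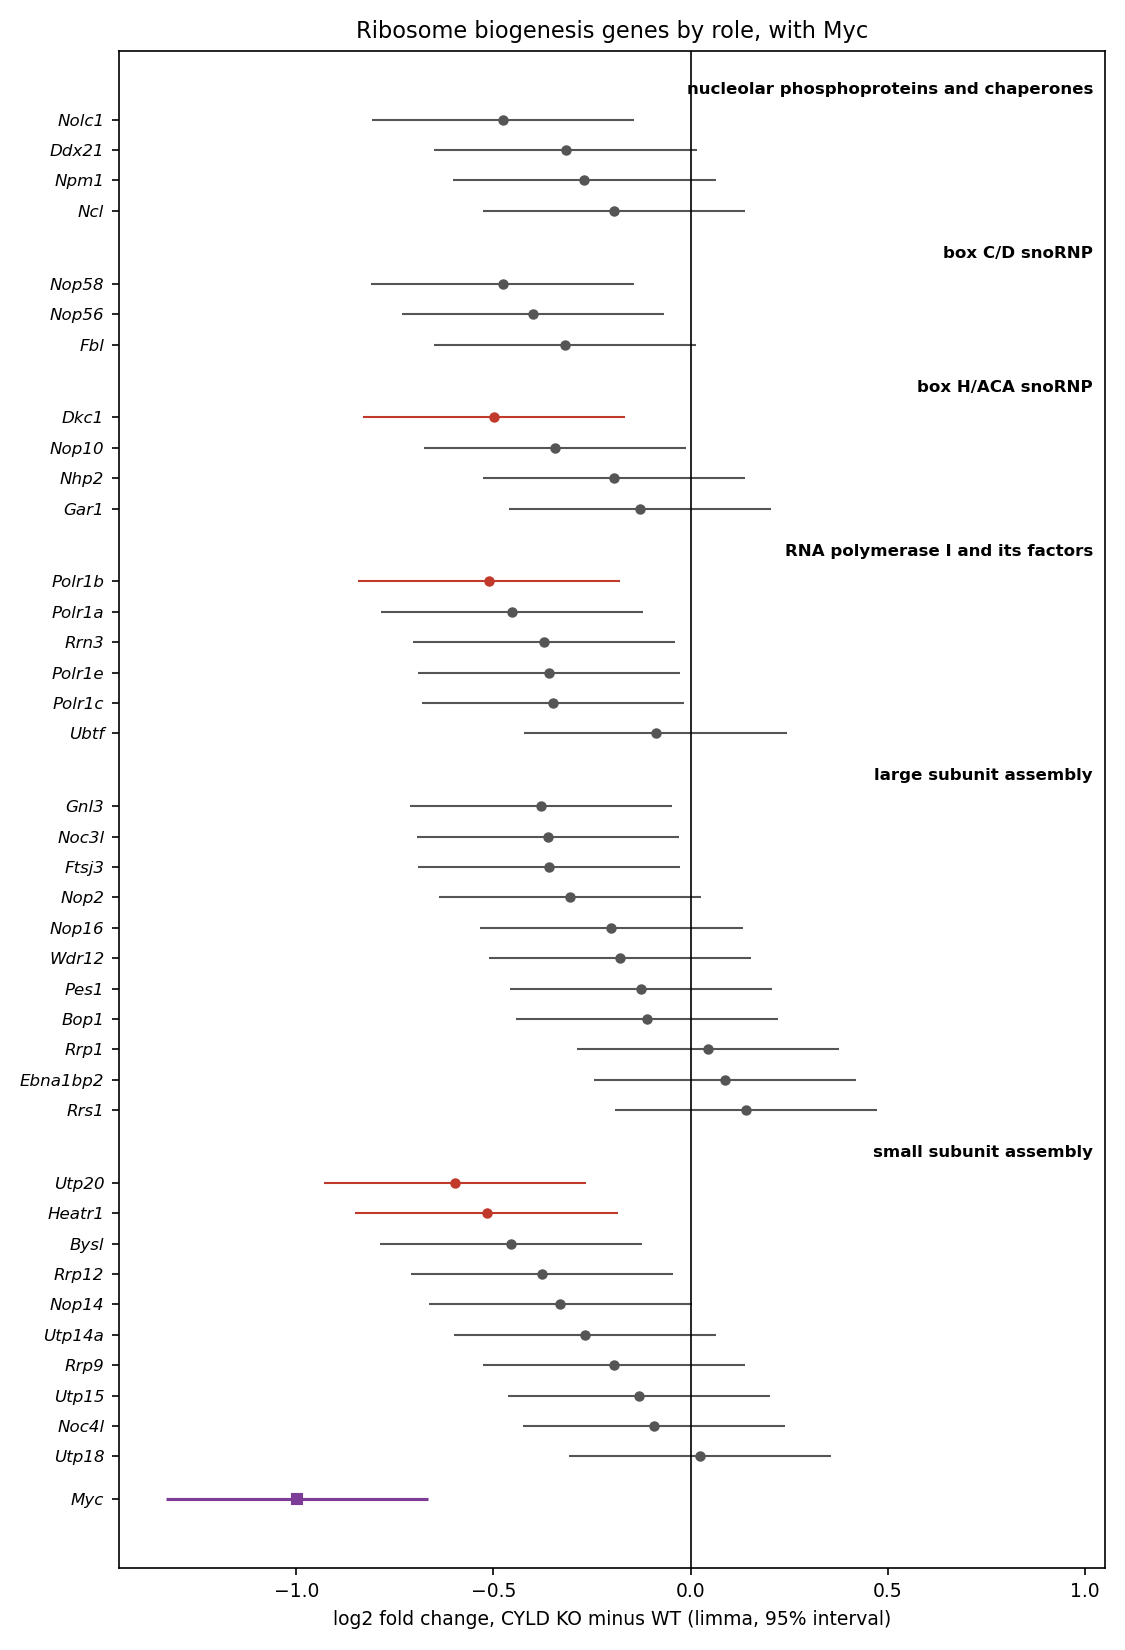
log2 fold change of each of the 38 members, CYLD knockout minus wild type, grouped by role, with limma's 95% interval; red marks the 4 members past the threshold and the purple square is Myc. Members lie between -0.60 and 0.14, and Myc at -1.00.

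The fall of Myc was larger than that of any member. Myc read 425 and 437 in the knockout and 878 and 847 in wild type (log2 fold change -1.00, 95% interval -1.33 to -0.67; limma adjusted p = 3.51e-07). In all 38 members the interval lay above the Myc estimate of -1.00, and in 17 its lower end reached below the upper end of the Myc interval. Among the 11 tested genes of the Myc network, Mxd1, which encodes an antagonist of Myc, was the other one past the threshold and rose, reading 633 and 708 in the knockout and 442 and 438 in wild type (log2 fold change 0.60, adjusted p = 0.00751). The call for Mxd1 did not hold without either wild-type array or without knockout replicate 2.

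Other ribosome biogenesis genes, a wider list of 106 genes of which 102 were tested, had a median nearer 0. Of these, 3 fell and 0 rose, 2.94% lower against the background of 3.5%. The median log2 fold change was -0.20, and 78 of 102 were below 0 (76.5%), against 53.3% of all tested genes. The 3 were Wdr75, a processome protein, Mdn1, the large ATPase that remodels the large subunit precursor, and Tsr1, a factor of late small subunit assembly, with log2 fold changes of -0.57, -0.55 and -0.52. Wdr75 read 161 and 169 in the knockout and 265 and 228 in wild type. None of the 3 passed without wild-type replicate 1 or without wild-type replicate 2, and Mdn1 did not pass without knockout replicate 2, nor Tsr1 without knockout replicate 1.

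Myc-responsive genes with other functions, such as nucleotide and polyamine synthesis, translation factors, chaperones and transport, had a median close to that of all tested genes. Of 31 tested, 0 fell and 1 rose, where 3.5% of all tested genes were called lower and 4.79% higher. The median log2 fold change was -0.06, and 18 were below 0 (58.1%), near the 53.3% of all tested genes. The gene that rose was Odc1, which encodes ornithine decarboxylase, the entry enzyme of polyamine synthesis and a well-known Myc target. It read 1017 and 819 in the knockout and 465 and 432 in wild type (log2 fold change 1.03, adjusted p = 1.47e-07), opposite in sign to Myc.

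Proliferation genes had a median fold change of the opposite sign to that of the ribosome biogenesis genes. Of 32 tested, 26 rose and 0 fell, where 4.79% of all tested genes were called higher and 3.5% lower. The median log2 fold change was 0.70, and all 32 were above 0, where 53.3% of all tested genes were below 0. The upper end of the interval stayed below the median of 0.70 in all 38 ribosome biogenesis members. That median depends on the knockout array, at 0.38 on replicate 1 and 1.03 on replicate 2. The upper ends for Rrs1 (0.47) and Ebna1bp2 (0.42) lay above 0.38. Of the brightest proliferation genes, Ccnb2, cyclin B2, read 849 and 1562 in the knockout and 554 and 500.1 in wild type, and Ube2c, a ubiquitin-conjugating enzyme of mitosis, 846 and 1467 in the knockout against 568 and 597 in wild type. Mcm5, a subunit of the replicative helicase, also rose, with a log2 fold change of 0.52, and Pcna, the sliding clamp, had 0.20 and did not pass. Without knockout replicate 2, 8 proliferation genes were higher, and without wild-type replicates 1 and 2, 16 and 15.

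**Figure D3:**
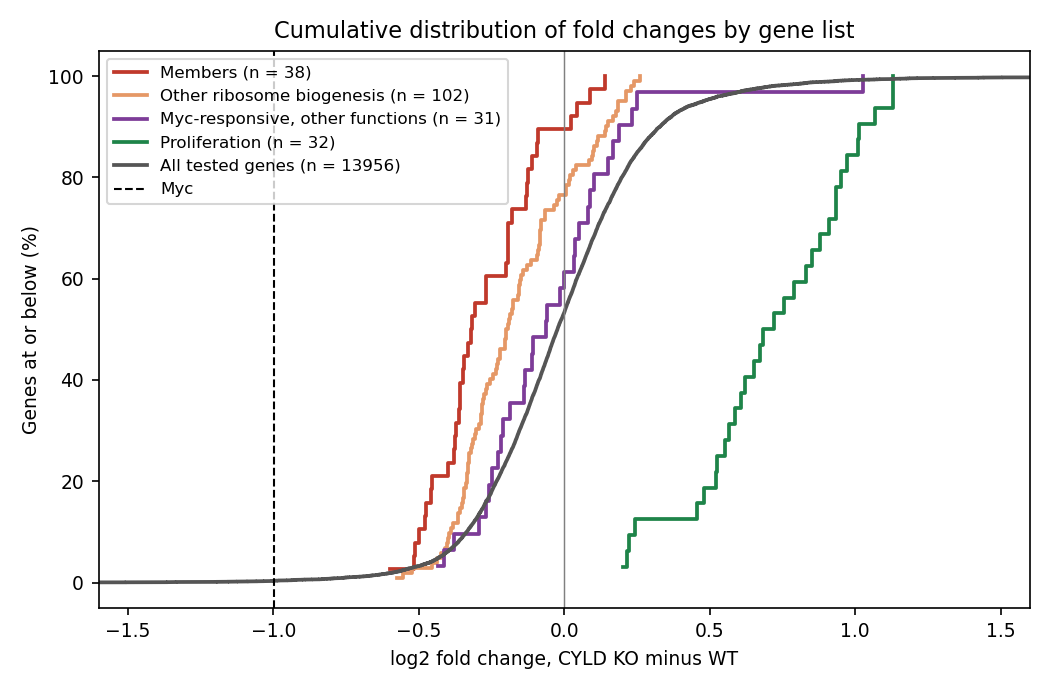
Cumulative share of genes (percent) at or below each log2 fold change, CYLD knockout minus wild type, for the members, 3 other lists and all tested genes; the dashed line marks Myc. The medians are -0.32 for members, -0.20 for other ribosome biogenesis genes, -0.06 for Myc-responsive genes with other functions, -0.02 for all tested genes and 0.70 for proliferation genes.

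Relative to the wild-type mean, the median log2 difference of the members was -0.32 on knockout replicate 1 and -0.30 on knockout replicate 2, with 19 of 38 members higher on replicate 2 than on replicate 1. The proliferation genes had medians of 0.38 and 1.03 on the same arrays, and 32 of 32 were higher on replicate 2. Myc differed from its wild-type mean by -1.02 and -0.98. The knockout arrays thus lay far apart in proliferation genes and close together in the median of the ribosome biogenesis genes. Among roles, the large subunit factors had medians of -0.28 on knockout replicate 1 and 0.01 on knockout replicate 2. Within wild type, replicate 1 read above replicate 2 in 29 of 38 members, with medians of 0.06 and -0.06. Over all tested genes it did so in 7275 of 13956, with medians of 0.0056 and -0.0056. Without wild-type replicate 1 the median fold change of the members was -0.24, and without wild-type replicate 2 it was -0.36.

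**Figure D4:**
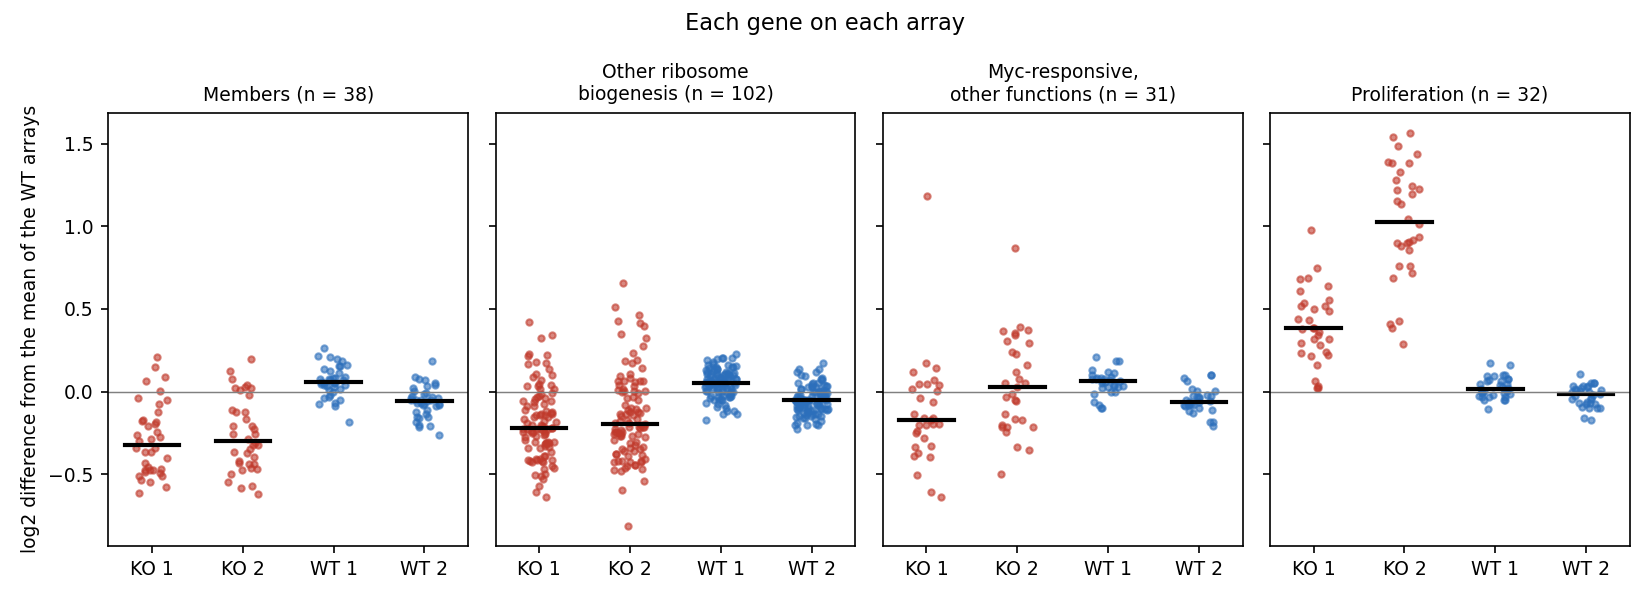
log2 difference of each tested gene from the mean of the wild-type arrays, on each knockout (red) and wild-type (blue) array, for 4 lists; black bars are medians. Members have medians of -0.32 and -0.30 on the knockout arrays, and proliferation genes 0.38 and 1.03.

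**Figure D5:**
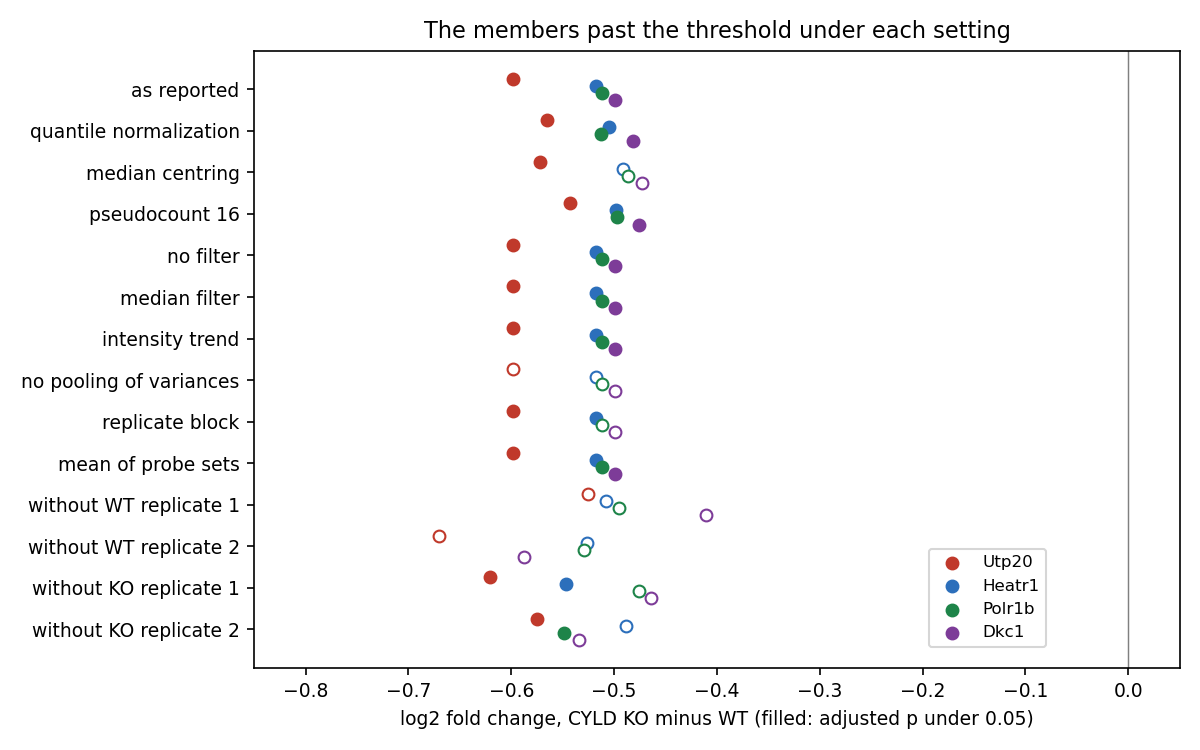
log2 fold change, CYLD knockout minus wild type, of the 4 members past the threshold under the reported and 13 alternative settings, with filled symbols where the adjusted p was under 0.05. All values lie between -0.67 and -0.41, and no symbol is filled without either wild-type replicate or with no pooling of variances.

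Promoter sequences were examined because Myc binds the E-box CACGTG. RefSeq windows of GRCm38.p6, from 250 bases before to 50 bases after an annotated transcript start, were found for 33 of the 38 tested members and not for Fbl, Npm1, Rrs1, Bop1 and Rrp12. The letters CACGTG, which read the same on both strands, occurred in 5 of the 33 genes, or 15.2%, against 11% of 11070 tested genes with a window. The 5 were Utp20, Rrn3, Nop2, Pes1 and Utp18, whose log2 fold changes of -0.60, -0.37, -0.31, -0.13 and 0.02 covered nearly the whole range of the members. The related letters CACGCG or CGCGTG occurred in 13 of 33 genes (39.4%) against 17.8% of tested genes, and CCGGAAG or CTTCCGG, the core of ETS factor sites, in 11 of 33 (33.3%) against 17.3%. Overlapping matches were each counted, and base composition was not matched.

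The 250 bases before the start are shown for the 4 members that fell and for Rrn3, the member with 2 E-boxes, with matches to the motifs above in capitals. They lie at chr10:88826815-88827064 on the minus strand for Utp20, chr13:12395125-12395374 on the plus strand for Heatr1, chr2:129100746-129100995 on the plus strand for Polr1b, chrX:75095604-75095853 on the plus strand for Dkc1 and chr16:13780449-13780698 on the plus strand for Rrn3. The E-box of Utp20 starts at base 38 after the start and is shown as a separate site at chr10:88826765-88826789, minus strand.
Utp20: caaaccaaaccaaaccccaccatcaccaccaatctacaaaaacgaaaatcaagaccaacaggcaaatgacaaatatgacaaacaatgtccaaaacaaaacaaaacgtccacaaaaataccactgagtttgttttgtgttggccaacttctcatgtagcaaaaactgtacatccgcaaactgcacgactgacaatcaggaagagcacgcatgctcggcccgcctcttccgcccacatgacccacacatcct
Utp20 E-box site: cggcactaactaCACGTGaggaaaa
Heatr1: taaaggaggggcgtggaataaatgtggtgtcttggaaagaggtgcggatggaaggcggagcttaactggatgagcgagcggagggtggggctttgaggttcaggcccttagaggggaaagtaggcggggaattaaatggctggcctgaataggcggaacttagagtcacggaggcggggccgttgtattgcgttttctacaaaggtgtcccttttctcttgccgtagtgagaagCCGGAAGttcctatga
Polr1b: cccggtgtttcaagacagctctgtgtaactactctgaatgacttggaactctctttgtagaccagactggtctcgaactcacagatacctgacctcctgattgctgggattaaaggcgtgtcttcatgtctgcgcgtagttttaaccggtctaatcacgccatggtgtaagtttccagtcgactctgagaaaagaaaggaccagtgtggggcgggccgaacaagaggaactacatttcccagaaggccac
Dkc1: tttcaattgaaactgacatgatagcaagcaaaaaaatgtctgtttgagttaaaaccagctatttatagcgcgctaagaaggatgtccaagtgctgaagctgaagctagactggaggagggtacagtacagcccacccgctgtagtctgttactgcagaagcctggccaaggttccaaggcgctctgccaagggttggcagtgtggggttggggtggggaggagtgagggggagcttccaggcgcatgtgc
Rrn3: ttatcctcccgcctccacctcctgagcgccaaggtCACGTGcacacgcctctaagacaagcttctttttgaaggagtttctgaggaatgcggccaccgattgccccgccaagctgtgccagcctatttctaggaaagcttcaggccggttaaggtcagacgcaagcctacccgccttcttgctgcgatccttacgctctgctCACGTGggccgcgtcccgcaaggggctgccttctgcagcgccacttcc
Heatr1 has 1 ETS core, which begins 16 bases before its start. Rrn3 has E-boxes that begin 215 and 48 bases before its start, and it also has 2 ETS cores, not shown in capitals, of which 1 begins 5 bases before the start and runs across it and the other begins at base 19 after the start. The stretches of Polr1b, Dkc1 and Utp20 before the start hold none of the letters searched. Of the 4 members that fell, 1 had CACGTG in its window.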

How the data were processed

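Total RNA of sorted Treg cells was labelled with biotin as cRNA in the usual Affymetrix way, per the labels. The authors deposited linear intensities, 1 per probe set and array, and their summarisation, background correction and scaling are not given in the sources used here. Of 35557 probe sets, 21789 had exactly 1 gene symbol in a platform annotation of 2016, and these gave 19938 genes. No detection calls were used.

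Intensities were taken as log2(value + 1), and genes above the 30th percentile of the mean (6.294) were tested. Knockout was compared with wild type in limma 3.58.1 (R 4.3.3, lmFit and eBayes), with Benjamini-Hochberg adjustment over all 13956 genes and a threshold of 0.05. The fit was also run on simulated data in which every gene had the same spread. The pooled fit assumes the same, so that run could not test this assumption. Every adjusted p is limma's. Precision is limited by 2 arrays per group. Compression of folds at low intensity was not tested.

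The members, roles and lists were chosen with earlier results of these data known, so no list was tested as a set. Named besides all members were Cyld, Myc, list genes past the threshold (up to 8 each way), the 4 brightest proliferation genes, and markers. Promoters are RefSeq's. Alternatives covered scaling, pseudocount (16), filter, variance model, replicate block, probe set choice and leaving out each array.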

Additional observations from a re-analysis of the deposited data

How the results depend on the processing

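Of the results on counts and medians, those of the ribosome biogenesis members moved as follows. The number of members lower was 4 as reported, 1 with median centring of the arrays (Utp20), 2 with the replicate number as a block, 0 with no pooling of variances and 0 to 5 when 1 array was left out. The number higher was 0 under all 13 alternatives. With no pooling, limma's fit without eBayes called 0 genes higher and 0 lower in every list and over all genes. At its unadjusted p under 0.05 there were 1813 genes in either direction, and 9 members lower against 6.96% of tested genes lower. The log2 fold change of Myc of -1.00 had an adjusted p of 0.214 in that fit. The median log2 fold change of the members was -0.36 to -0.24 when 1 array was left out. Leaving out 1 array gave 254 to 919 genes higher and 118 to 767 lower over all genes, 0 to 2 higher and 0 to 3 lower other ribosome biogenesis genes, 8 to 28 higher proliferation genes, 1 higher and 0 to 2 lower Myc-responsive genes, and 0 to 1 higher and 1 to 2 lower Myc network genes; in these fits the lone array is assumed to vary like the other group. With an intensity trend 1 Myc-responsive gene was lower. Other ribosome biogenesis genes had 2 lower with median centring.

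Among single members, Utp20 kept its call under 10 of 13 alternatives, Heatr1 under 8, Polr1b under 7 and Dkc1 under 6, and the adjusted p of Utp20 ran from 0.00765 to 0.341. Signs turned only when 1 array was left out, in members that were not called: the log2 fold change then ran from -0.32 to 0.0596 for Gar1, -0.51 to 0.12 for Nhp2, -0.27 to 0.0438 for Bop1, -0.37 to 0.00951 for Wdr12, -0.47 to 0.0728 for Nop16, -0.00522 to 0.0918 for Rrp1, -0.32 to 0.0550 for Utp15 and -0.16 to 0.21 for Utp18. The cause was not tested. Nothing in the labels says whether same-numbered replicates pair. Their deviations correlated at -0.092 across genes, a single contrast between few arrays that cannot exclude pairing. The replicate block gave 603 genes higher and 428 lower, against 669 and 488 as reported. Whether low signal over background limits the folds of members near the array medians was not tested.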
